A study of Mus musculus with 8 samples.

Results

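The 10 genes followed here encode the proximal signalling and desensitization partners of chemokine receptors. They are the G protein subunit genes Gnai2, Gnai3 and Gnb1, the effector gene Plcb2, the receptor kinase gene Grk6, the arrestin genes Arrb1 and Arrb2, and the RGS (regulator of G protein signaling) genes Rgs2, Rgs18 and Rgs19. They were chosen by gene symbol, with earlier results of these data known. All 10 were found among the 55414 genes of the count files and passed the filter on low counts, as 16778 genes did. Expression was measured by RNAseq in spleen neutrophils of 4 WT mice and of 4 mice without the chemokine receptor gene Cxcr2 (*Cxcr2-/-*), 1 library per mouse. All mice were 10 weeks old, on the FVB background and kept in an animal facility of SOPF status, which is free of specific and opportunistic pathogens. *Cxcr2-/-* mice lack the receptor in every cell of the body and were backcrossed to FVB, and the neutrophils were enriched with CD11b beads and then sorted as CD45+ CD11b+ Ly6G+ cells without F4/80.

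CXCR2 and the other chemokine receptors of neutrophils signal mainly through Gi proteins. A bound receptor makes the Gα subunit exchange GDP for GTP, Gα and the Gβγ dimer come apart, and Gβγ activates phospholipase Cβ and PI3 kinase γ, which drive calcium release and migration. RGS proteins speed up the hydrolysis of GTP by Gα and so end the signal, while G protein-coupled receptor kinases (GRKs) phosphorylate the active receptor, to which β-arrestins bind, uncoupling it and taking it into the cell.

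Counts on genes totalled 34220182 to 46233555 per WT library and 37549648 to 43789253 per *Cxcr2-/-* library. Cxcr2 RNA was between 1719 and 2252 CPM (counts scaled to a common library size, with TMM factors) in WT and between 12.9 and 20.7 CPM in *Cxcr2-/-* libraries, in the direction of each label. Among markers of the sorted cell, 6 of 8 neutrophil genes were higher and 1 was lower in *Cxcr2-/-* libraries, and their summed level was 31080 to 44810 CPM in WT and 67650 to 81580 CPM in *Cxcr2-/-* libraries. Of the markers of other cells tested, 6 of 7 B cell genes and 3 of 5 megakaryocyte and platelet genes were lower in *Cxcr2-/-* libraries. The same held for 2 of 5 dendritic cell genes and 2 of 6 T and NK cell genes. Of 4 eosinophil and basophil genes 3 were higher and 1 lower, and of 5 erythroid genes none was higher or lower. By the same rule, an edgeR adjusted p under 0.05, 23.7% of all genes were higher and 21.0% lower. Of 10 monocyte and macrophage genes 2 were lower (Csf1r and Adgre1) and 1 was higher (Ly6c2), with a median log2 fold change of -0.91 over the 10. The libraries differed in the share of pairs that met no gene, which made up 31.4% to 41.5% of all pairs in WT and 26.7% to 31.9% in *Cxcr2-/-* libraries. WT replicate 1, with 31.4%, stood apart from the other WT libraries, which were at 40.0% to 41.5%.

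Promoters are shown for the gene with the largest fall, Rgs2, and for 2 of the genes that rose, Gnb1 and Rgs19, since their RNA moved in opposite directions. RefSeq (GRCm38.p6) gave a promoter for 6 of the 10 genes and none for Gnai2, Arrb1, Arrb2 and Rgs18. Each sequence is the 250 bases before the first listed start of the gene, 5′ to 3′ on the gene's strand. Capitals mark matches on either strand to the cAMP response element core TGACG, the AP-1 site TGANTCA, the GC box GGGCGG, the PU.1 site GAGGAAGT, the C/EBP site TTGCNNAA or the TATA box TATAAA, and some GC box matches overlap each other.
Rgs2, chr1:144004150-144004399, minus strand: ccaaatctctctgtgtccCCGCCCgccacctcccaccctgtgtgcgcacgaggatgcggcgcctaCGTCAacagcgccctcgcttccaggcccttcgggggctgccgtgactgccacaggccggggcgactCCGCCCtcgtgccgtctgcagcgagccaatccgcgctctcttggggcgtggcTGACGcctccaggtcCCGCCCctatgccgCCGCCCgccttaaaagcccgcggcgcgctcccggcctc
Gnb1, chr4:155491111-155491360, plus strand: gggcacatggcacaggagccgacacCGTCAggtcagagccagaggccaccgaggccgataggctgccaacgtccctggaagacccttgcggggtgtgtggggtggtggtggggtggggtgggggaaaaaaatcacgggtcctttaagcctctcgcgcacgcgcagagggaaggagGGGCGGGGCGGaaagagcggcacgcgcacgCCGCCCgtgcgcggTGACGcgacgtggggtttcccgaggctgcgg
Rgs19, chr2:181693978-181694227, minus strand: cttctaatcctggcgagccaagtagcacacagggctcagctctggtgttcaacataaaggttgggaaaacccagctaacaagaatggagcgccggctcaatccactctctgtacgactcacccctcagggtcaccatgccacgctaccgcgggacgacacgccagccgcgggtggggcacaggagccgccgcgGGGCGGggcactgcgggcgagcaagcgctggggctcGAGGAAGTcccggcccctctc

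The Rgs2 promoter held 4 GC boxes and 2 of these cores, and that of Gnb1 held 3 GC boxes and 2 cores, while RNA of the former was lower and of the latter higher in *Cxcr2-/-* neutrophils. Rgs19 had 1 GC box and 1 PU.1 site, the latter starting 21 bases before the start. The Plcb2 window held 1 C/EBP site, and those of Gnai3 and Grk6 held none of the 6 motifs. Of all 32851 promoter windows of this length, 32.7% held the GC box, 17.8% the cAMP response element core, 9.56% the C/EBP site and 2.44% the PU.1 site. The AP-1 site, found in 6.75% of all windows, and the TATA box, found in 12.4%, were in none of the 6. These are matches of letters, and binding was not measured.

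In *Cxcr2-/-* neutrophils, 7 of the 10 genes were higher (Gnai2, Gnai3, Gnb1, Plcb2, Grk6, Arrb2 and Rgs19), 2 were lower (Rgs2 and Arrb1) and Rgs18 did not pass, where passing means a Benjamini-Hochberg adjusted p under 0.05 over all genes in the quasi-likelihood test of edgeR. Of all genes tested, 44.7% passed by the same rule, 23.7% as higher and 21.0% as lower. The largest change was the 2.69-fold fall of Rgs2, and the rises were between 1.33-fold for Grk6 and 1.56-fold for Rgs19. With a change of at least 1.5-fold added, 2 of the 10 genes were higher (Arrb2 and Rgs19) and 2 lower, where 31.3% of all genes passed, 15.7% as higher and 15.7% as lower. The median log2 fold change was 0.43 over the 10 genes and 0.01 over all genes tested. As the 10 genes were chosen with earlier results of these data known, these shares and medians do not test the set. The groups did not overlap for 7 of the 10 genes, as for 41.6% of all genes. In sorted populations, fewer cells that express a gene and less RNA per cell cannot be told apart.

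The share of pairs that met no gene was added to the fit as a covariate. The log2 fold changes of the 7 rises and of the 2 falls then all moved downward, and their standard errors grew. For example, Gnai3 went from 0.46 to 0.27 and Arrb1 from -0.62 to -0.83. The rises thus came nearer to 0 and the falls lay further from it. With that share as a covariate none of the 7 rises passed in edgeR (adjusted p from 0.231 to 0.988, and 0 at an unadjusted p under 0.05), whereas Rgs2 (adjusted p = 8.36e-04) and Arrb1 (adjusted p = 0.0214) remained lower. The share differs with genotype and WT replicate 1 alone among WT libraries lay within the range of the *Cxcr2-/-* libraries, so that the parts of share and genotype cannot be told apart. Over all genes the same fit called 1597 genes higher and 1486 lower, against 3969 and 3526 without it. The part of this share in the rises was not tested. With a covariate for markers of non-neutrophil cells, 4 of the 7 rises passed (Gnai3, Gnb1, Arrb2 and Rgs19), and both falls did.

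**Figure D1:**
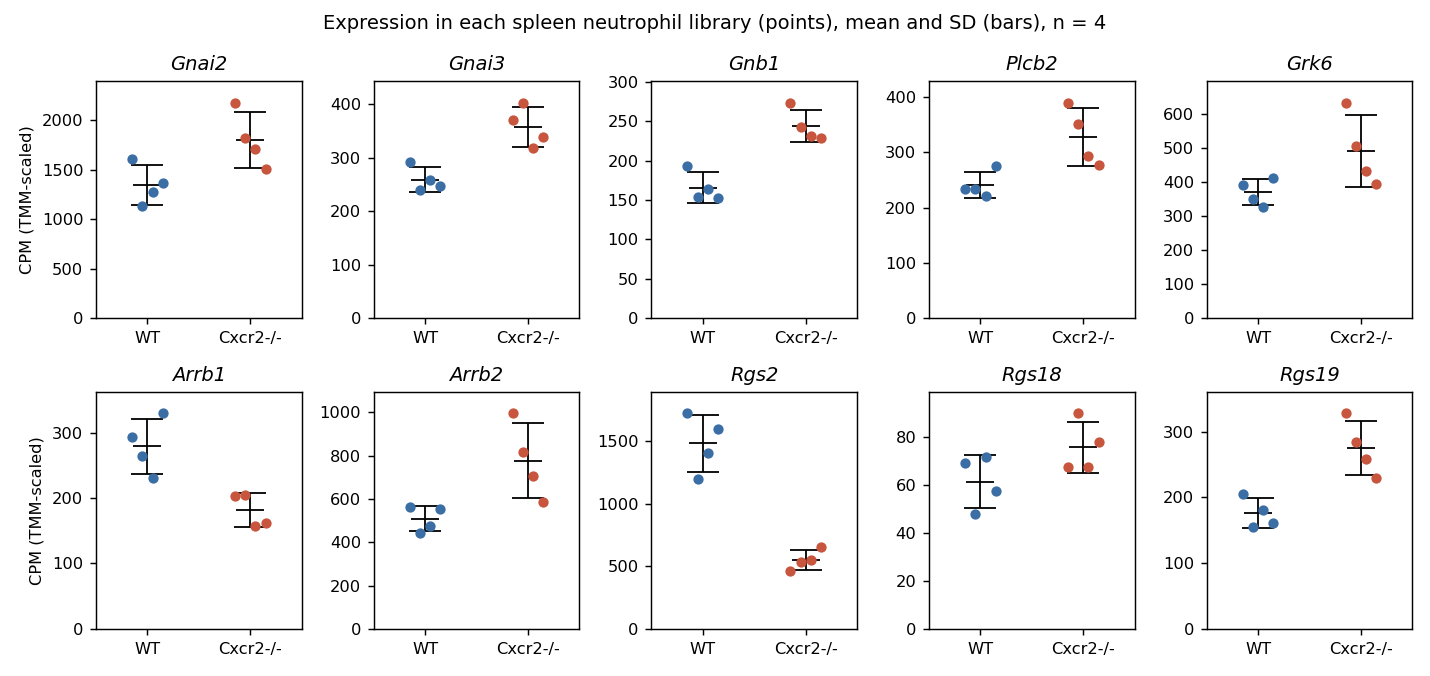
CPM of each of the 10 genes (vertical axes, each from 0) in the 4 WT and 4 *Cxcr2-/-* libraries, with 1 point per library and bars for the mean and SD. Rgs2 and Arrb1 lie lower in every *Cxcr2-/-* library than in any WT library, and Gnai3, Gnb1, Plcb2, Arrb2 and Rgs19 lie higher.

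Gnai2 and Gnai3 encode the Gαi2 and Gαi3 subunits that carry the signal of chemokine receptors. Gnai2 (ENSMUSG00000032562, chromosome 9 from 107614125 to 107635367 of GRCm38) was at 1613, 1135, 1276 and 1362 CPM in WT replicates 1 to 4 and at 2178, 1818, 1709 and 1502 CPM in *Cxcr2-/-* replicates 1 to 4. The groups overlapped, as WT replicate 1 was above *Cxcr2-/-* replicate 4. This gave a log2 change of 0.42 (SE 0.14, edgeR adjusted p = 0.0286). Only 10 of 18 alternative fits kept its call. It did not pass without WT replicate 2, 3 or 4 or without *Cxcr2-/-* replicate 1 or 2 (edgeR adjusted p up to 0.107), and its log2 fold change was -0.01 with the covariate for pairs that met no gene.

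Gnai3 (ENSMUSG00000000001, chromosome 3 from 108107280 to 108146146) was at 293, 240.4, 258 and 247 CPM in WT and at 370.2, 403, 318 and 339 CPM in *Cxcr2-/-* replicates 1 to 4. Every *Cxcr2-/-* library was above every WT library. In edgeR the log2 change was 0.46 with an SE of 0.11 (adjusted p = 0.00330). Gnai1, which encodes the remaining Gαi subunit, had no count in any library.

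The ratio of Gnai2 to Gnai3 counts within a library does not depend on the scaling between libraries. It was 5.51, 4.72, 4.95 and 5.52 in WT and 5.88, 4.51, 5.38 and 4.43 in *Cxcr2-/-* replicates 1 to 4, with overlapping groups. The mean log2 ratio was 2.37 ± 0.11 in WT and 2.33 ± 0.20 in *Cxcr2-/-* libraries (SD, n = 4 each), a difference of -0.04 (exact permutation test, two-sided, p = 0.686, Benjamini-Hochberg adjusted over 3 ratios 0.686). Per length of exons, Gnai2 made up 81.7% ± 1.18 of the sum of both in WT and 81.2% ± 2.09 in *Cxcr2-/-* libraries (SD, n = 4 each).

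Gnb1 encodes the Gβ1 subunit, a partner of Gαi in the resting trimer. Gnb1 (ENSMUSG00000029064, chromosome 4 from 155491361 to 155559269) was at 193, 154, 163 and 153 CPM in WT and at 273, 242, 231 and 229 CPM in *Cxcr2-/-* replicates 1 to 4. The groups were apart, with WT replicate 1 nearest to the *Cxcr2-/-* values. On the log2 scale the change was 0.56 ± 0.10 (SE), with an edgeR adjusted p of 8.92e-04.

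Plcb2 encodes phospholipase Cβ2, the enzyme that Gβγ activates to release inositol trisphosphate in myeloid cells. Plcb2 (ENSMUSG00000040061, chromosome 2 from 118707517 to 118728438) was at 234, 234, 220.4 and 276 CPM in WT and at 390.3, 351, 294 and 278 CPM in *Cxcr2-/-* replicates 1 to 4. The highest WT value and the lowest *Cxcr2-/-* value nearly met. This gave a log2 change of 0.44 (SE 0.12, edgeR adjusted p = 0.0102), and the adjusted p was 0.0511 with the covariate for non-neutrophil markers.

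Grk6 encodes a kinase that phosphorylates CXCR2 and CXCR4 in neutrophils. Grk6 (ENSMUSG00000074886, chromosome 13 from 55445072 to 55460927) was at 390.1, 350.4, 326 and 411 CPM in WT and at 632, 505, 433 and 392 CPM in *Cxcr2-/-* replicates 1 to 4. The groups overlapped, and *Cxcr2-/-* replicate 1 was the highest of the 8 libraries. In edgeR the log2 change was 0.41 with an SE of 0.14 (adjusted p = 0.0341). The call held in 8 of 18 alternative fits, and was lost without WT replicate 1, 2 or 3 or without *Cxcr2-/-* replicate 1 or 2 (edgeR adjusted p up to 0.110).

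Arrb1 and Arrb2 encode β-arrestin 1 and β-arrestin 2, which bind phosphorylated receptors, and their RNA moved in opposite directions. Arrb1 (ENSMUSG00000018909, chromosome 7 from 99535466 to 99606771) was at 293, 264, 230 and 329 CPM in WT and at 204, 205, 157 and 161 CPM in *Cxcr2-/-* replicates 1 to 4. All *Cxcr2-/-* values lay below all WT values. On the log2 scale the change was -0.62 ± 0.13 (SE), with an edgeR adjusted p of 0.00213, and Arrb1 passed in all 18 alternative fits, with log2 fold changes from -0.83 to -0.53.

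Arrb2 (ENSMUSG00000060216, chromosome 11 from 70432635 to 70440828) was at 563, 444, 474 and 555 CPM in WT and at 995, 818, 706 and 586 CPM in *Cxcr2-/-* replicates 1 to 4. The groups did not overlap, but *Cxcr2-/-* replicate 4 was close to the highest WT value. This gave a log2 change of 0.61 (SE 0.15, edgeR adjusted p = 0.00603). A microRNA gene, Mir7115, covers 64 exon bases of Arrb2, 2.25% of them, in GENCODE M21.

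The Arrb1 to Arrb2 ratio of counts was 0.520, 0.595, 0.485 and 0.594 in WT and 0.205, 0.251, 0.222 and 0.275 in *Cxcr2-/-* replicates 1 to 4. All *Cxcr2-/-* ratios were below all WT ratios. The ratio was 2.31-fold lower in *Cxcr2-/-* libraries (difference of the mean log2 ratio -1.21, exact permutation test, two-sided, p = 0.0286, the smallest that 4 mice against 4 allow, adjusted over 3 ratios 0.0429). Per length of exons, Arrb1 made up 12.2% ± 1.08 of the sum of both arrestin genes in WT and 5.71% ± 0.704 in *Cxcr2-/-* libraries (SD, n = 4 each).

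Rgs2 encodes a short RGS protein that acts preferentially on Gq and whose gene is induced by many stimuli. Rgs2 (ENSMUSG00000026360, chromosome 1 from 143999338 to 144004161) was at 1721, 1198, 1404 and 1597 CPM in WT and at 460.0, 537, 552 and 653 CPM in *Cxcr2-/-* replicates 1 to 4. The lowest WT library was well above the highest *Cxcr2-/-* library. In edgeR the log2 change was -1.43 with an SE of 0.14 (adjusted p = 6.67e-06), and it stayed between -1.54 and -1.34 in the 18 alternative fits, all of which passed.

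Immediate early genes, which are also induced by stimuli, moved in the direction of Rgs2. Of 12 tested, 11 were lower and none was higher in *Cxcr2-/-* libraries, where 21.0% of all genes were lower. Their summed level was 11180 to 12470 CPM in WT and 1626 to 3413 CPM in *Cxcr2-/-* libraries. Their part in the change of Rgs2 was not tested.

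Rgs18 encodes an RGS protein best known from platelets and megakaryocytes, which acts on Gi and Gq. Rgs18 (ENSMUSG00000026357, chromosome 1 from 144752683 to 144775435) was at 69.1, 47.7, 71.5 and 57.5 CPM in WT and at 67.5, 89.9, 67.5 and 77.8 CPM in *Cxcr2-/-* replicates 1 to 4. The groups overlapped. The log2 fold change was 0.30, with a 95% interval from 0.0058 to 0.59, and it did not pass (adjusted p = 0.0907 by edgeR), nor did it in any of the 18 alternative fits.

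The platelet markers Pf4 and Ppbp were near 0 in both groups, with group means of 0.0184 to 0.106 CPM. Of 5 megakaryocyte and platelet markers tested, 3 were lower in *Cxcr2-/-* libraries, where 21.0% of all genes were. These were Itga2b (log2 fold change -0.56, edgeR adjusted p 0.0388), Gp1ba (-0.68, edgeR adjusted p 0.00700) and Vwf (-1.32, edgeR adjusted p 4.20e-04). The summed level of 10 megakaryocyte and platelet markers was 82.8 to 99.4 CPM in WT and 53.0 to 86.1 CPM in *Cxcr2-/-* libraries, most of it Itgb3, an integrin gene that other leukocytes also use.

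The Rgs2 to Rgs18 ratio of counts was 24.9, 25.1, 19.6 and 27.7 in WT and 6.81, 5.97, 8.18 and 8.40 in *Cxcr2-/-* replicates 1 to 4. The groups were apart, and the ratio was 3.32-fold lower in *Cxcr2-/-* libraries (difference of the mean log2 ratio -1.73, exact permutation test, two-sided, p = 0.0286, adjusted over 3 ratios 0.0429).

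Rgs19 encodes an RGS protein, also called GAIP for its binding to Gαi3. Rgs19 (ENSMUSG00000002458, chromosome 2 from 181688419 to 181693977) was at 206, 155, 181 and 162 CPM in WT and at 328, 285, 258 and 230.0 CPM in *Cxcr2-/-* replicates 1 to 4. The groups did not overlap. On the log2 scale the change was 0.65 ± 0.13 (SE), with an edgeR adjusted p of 0.00119, the largest rise among the 10 genes.

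**Figure D2:**
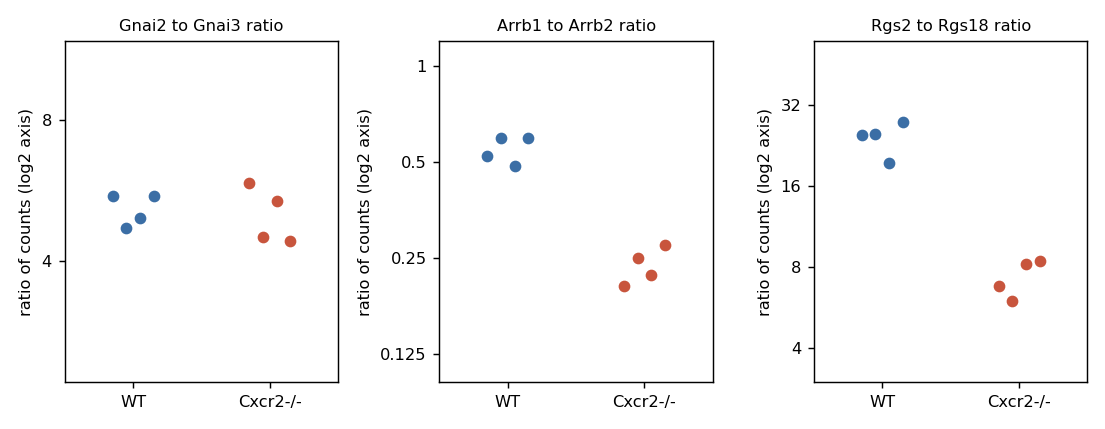
Ratio of counts of Gnai2 to Gnai3, Arrb1 to Arrb2 and Rgs2 to Rgs18 within each library (vertical axes on a log2 scale), with 1 point per library. The *Cxcr2-/-* ratios lie below all WT ratios for the arrestin pair (0.205 to 0.275 against 0.485 to 0.595) and the RGS pair (5.97 to 8.40 against 19.6 to 27.7), and overlap them for the Gαi pair.

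The genes that rose were also set beside the share of pairs that met no gene within each group. *Cxcr2-/-* replicate 1, with the lowest share of its group (26.7%), had the highest *Cxcr2-/-* value for 6 of the 7, and *Cxcr2-/-* replicate 4, with the highest share (31.9%), had the lowest for 6 of the 7. In WT the order was looser. WT replicate 1, with the lowest share (31.4%), had the highest WT value for 5 of the 7, while WT replicate 3, with the highest share (41.5%), had the lowest for 2 of the 7 (Grk6 and Plcb2). For Grk6 and Plcb2 the highest WT value was in WT replicate 4, at 40.0%. Of the 2 genes that fell, Rgs2 also had its extremes in *Cxcr2-/-* replicates 1 (lowest, 460.0 CPM) and 4 (highest, 653 CPM). In WT Rgs2 was highest in replicate 1 (1721 CPM). Arrb1 was highest in *Cxcr2-/-* replicate 2 (205 CPM) and in WT replicate 4 (329 CPM).

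**Figure D3:**
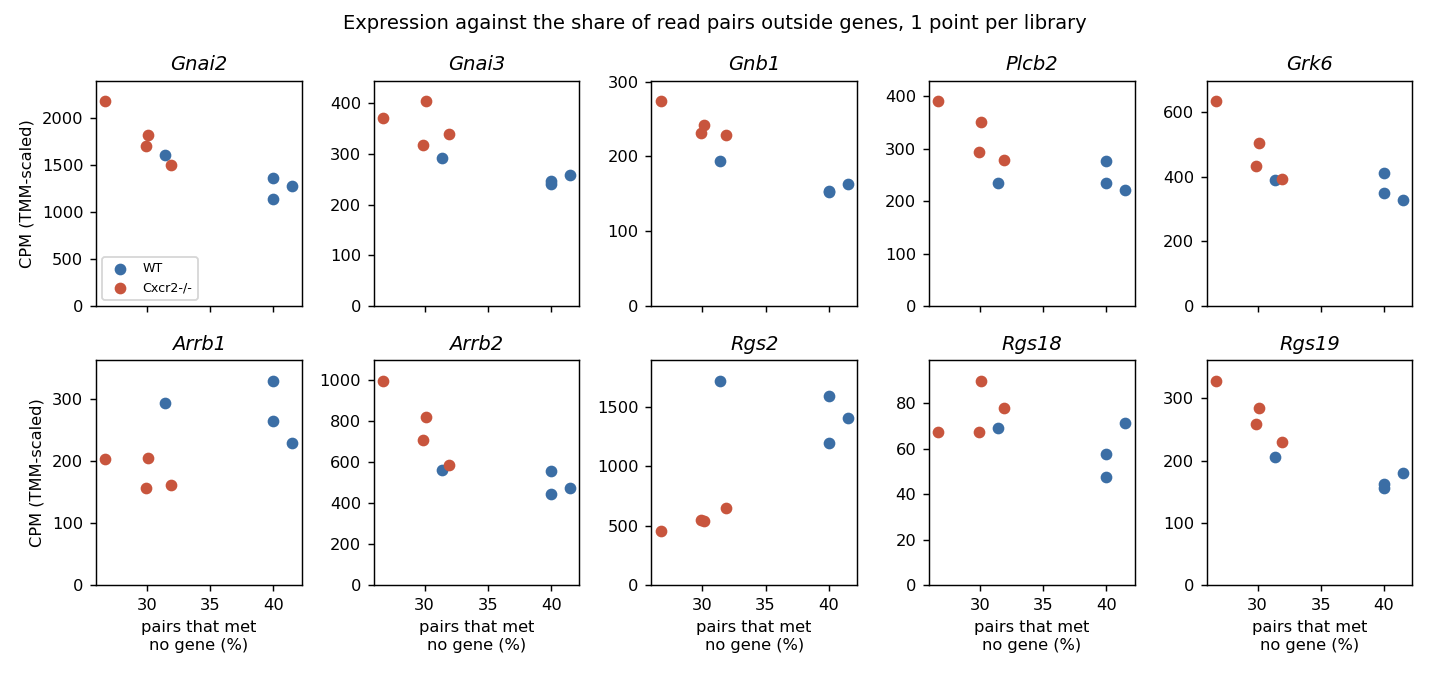
CPM of each gene (vertical axes, each from 0) against the percentage of pairs that met no gene (horizontal axes), with 1 point per library, blue for WT and red for *Cxcr2-/-*. For Gnai2, Arrb2 and Grk6 the WT library at 31.4% lies among or next to the *Cxcr2-/-* libraries, while for Rgs2 and Arrb1 it lies with the other WT libraries. For Plcb2, which rose, that library (234 CPM) also lies with the other WT libraries. For Gnai3, Gnb1 and Rgs19 that library is the highest in WT but lies below every *Cxcr2-/-* library. WT replicate 4, at 40.0%, lies above that library for Grk6 (411 against 390.1 CPM) and just below it for Arrb2 (555 against 563 CPM).

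**Figure D4:**
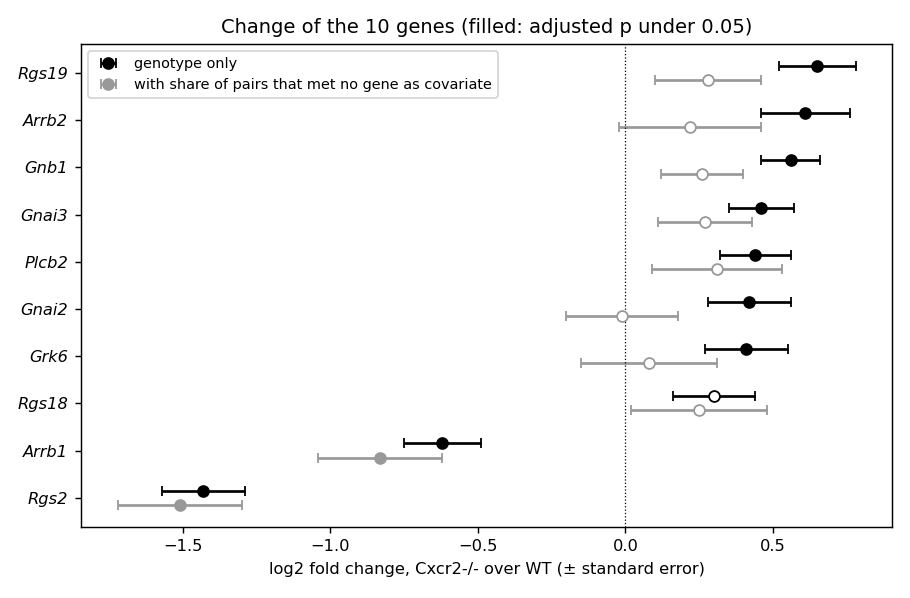
Log2 fold change of each gene, *Cxcr2-/-* over WT, from edgeR with genotype alone (black) and with the share of pairs that met no gene as a covariate (grey), where bars are standard errors and filled points have an adjusted p under 0.05. With the covariate Rgs2 (-1.51) and Arrb1 (-0.83) remain filled, and the 7 genes that rose lie between -0.01 and 0.31.

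Levels of different genes were compared as CPM per kb of exon in GENCODE M21. In WT neutrophils Rgs2 (408 ± 63.0) and Gnai2 (356 ± 53.2) had the highest levels, followed by Arrb2 (179 ± 20.8), Grk6 (87.9 ± 9.13), Gnai3 (79.5 ± 7.16) and Rgs19 (78.9 ± 10.1) (CPM per kb, SD, n = 4). Gnb1 (38.8 ± 4.47), Plcb2 (36.6 ± 3.64), Rgs18 (30.3 ± 5.41) and Arrb1 (25.0 ± 3.78 CPM per kb) were the lowest. Of the 9 pairs of neighbours in this order, 6 overlapped between libraries, and the steps without overlap were those from Gnai2 to Arrb2, from Arrb2 to Grk6 and from Rgs19 to Gnb1.

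In *Cxcr2-/-* neutrophils Gnai2 (477 ± 74.9) had the highest level and Arrb2 (273 ± 61.2) the next, and Rgs2 (152 ± 21.9) followed, next to Rgs19 (123 ± 18.7), Grk6 (117 ± 25.1) and Gnai3 (109.6 ± 11.4) with overlapping levels (CPM per kb, SD, n = 4). Gnb1 (57.2 ± 4.82), Plcb2 (49.8 ± 7.88), Rgs18 (37.3 ± 5.25) and Arrb1 (16.3 ± 2.36 CPM per kb) followed. Arrb1 was the lowest of the 10 genes in both groups and has 11175 exon bases in the annotation, the most of the 10.

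Other genes of the pathway were taken from 6 lists with 74 genes, of which 49 passed the filter on low counts. These lists were also chosen with earlier results of these data known. Of these, 13 were higher, 12 lower and 24 did not pass at an adjusted p under 0.05, with a median log2 fold change of -0.17. The 25 genes that were not tested had group means of at most 0.248 CPM. In shares of the 49, 26.5% were higher and 24.5% lower, against 23.7% higher and 21.0% lower among all genes. With the covariate for pairs that met no gene, 4 of these genes were higher and 7 lower.

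Of the other Gα genes, 9 of 11 were tested, 1 was higher and 2 were lower. Among all genes 23.7% were higher and 21.0% lower. Gna15, a Gα of blood cells that couples to many receptors, rose from 21.0 ± 0.824 to 46.4 ± 13.2 CPM (mean ± SD, n = 4 each), a log2 change of 1.14 (edgeR adjusted p 1.02e-04). Gnaq, which activates phospholipase Cβ, fell from 168 ± 7.52 to 124 ± 13.2 CPM (log2 change -0.44, edgeR adjusted p 0.00255). With the covariate for pairs that met no gene neither passed, at 0.78 for Gna15 (edgeR adjusted p 0.0750) and -0.41 for Gnaq (edgeR adjusted p 0.110). Gna13 averaged 156 ± 15.7 CPM in WT against 149 ± 17.8 CPM in *Cxcr2-/-* neutrophils, with a log2 fold change of -0.07 (95% interval -0.31 to 0.17).

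Of the other Gβ and Gγ genes, 11 of 16 were tested, 4 were higher and 2 lower. Among all genes 23.7% were higher and 21.0% lower. Gnb5, whose product pairs with RGS proteins of the R7 family, was at 1.08, 0.543, 0.722 and 0.752 CPM in WT and at 11.5, 12.1, 12.1 and 12.2 CPM in *Cxcr2-/-* replicates 1 to 4. These groups were far apart, with a log2 change of 3.95 (SE 0.20, edgeR adjusted p = 7.77e-08), the largest change of any gene in these lists, from a low WT level. Gnb2, a further Gβ gene, averaged 500.1 ± 58.8 CPM in WT against 637 ± 101 CPM in *Cxcr2-/-* neutrophils (log2 change 0.35, edgeR adjusted p 0.0417), and only 4 of 18 alternative fits kept its call, which was lost without any 1 of WT replicates 2 to 4 or *Cxcr2-/-* replicates 1 to 3. Among the Gγ genes, the rise of Gng5 (log2 fold change 0.36) held in 4 and the fall of Gng2 (-0.26) in 7 of 18 alternative fits, where Gng5 was lost without any 1 of WT replicates 2 to 4 or *Cxcr2-/-* replicates 1 to 3, and Gng2 without any 1 library other than WT replicate 2. Gng12 did not pass (0.12), while Gng7 rose from 0.481 ± 0.178 to 1.43 ± 0.452 CPM (log2 change 1.57, edgeR adjusted p 0.00274), which did not pass with the covariate for pairs that met no gene (1.07, edgeR adjusted p 0.256).

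Of the other RGS genes, 6 of 18 were tested, none was higher (also at an unadjusted p under 0.05 in edgeR) and 2 were lower. Among all genes 23.7% were higher and 21.0% lower, and 6 genes are too few to set apart from these shares. Rgs1, an inducible gene of lymphocytes and myeloid cells, was at 35.9, 79.2, 33.8 and 19.9 CPM in WT and at 4.10, 3.65, 14.6 and 23.2 CPM in *Cxcr2-/-* replicates 1 to 4. The groups overlapped, and the log2 fold change was -1.89 with a standard error of 0.54 (adjusted p = 0.0130 by edgeR). Single libraries moved it, to -2.51 without *Cxcr2-/-* replicate 4 and to -1.40 without WT replicate 2 (edgeR adjusted p 0.0495). WT replicate 2, with the highest Rgs1 value, also had the highest summed level of 6 dendritic cell markers, 35.6 CPM. The other WT libraries were at 11.2 to 14.7 CPM and the *Cxcr2-/-* libraries at 6.61 to 11.2 CPM. WT replicate 2 had the lowest summed level of 7 B cell markers in WT (37.5 CPM against 42.7 to 86.4 CPM). It was also the lowest in WT for T and NK cell markers (114.1 CPM against 120.8 to 135.7 CPM). Its summed level of monocyte and macrophage markers (761.4 CPM) lay within the range of the other WT libraries (754.8 to 882.9 CPM). Rgs1 had a log2 change of -1.14 with the covariate for non-neutrophil markers (edgeR adjusted p 9.23e-04) and -1.20 with that for pairs that met no gene (edgeR adjusted p 0.305). Rgs3 fell from 126 ± 23.98 to 91.8 ± 8.41 CPM with overlapping groups (log2 change -0.46, edgeR adjusted p 0.0124). Rgs14 averaged 248 ± 24.7 CPM in WT against 223 ± 47.0 CPM in *Cxcr2-/-* neutrophils (edgeR adjusted p = 0.387).

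Rgs2, Rgs13, Rgs1, Rgs21 and Rgs18 lie in this order on chromosome 1 between 143999338 and 144775435 of GRCm38, all on the minus strand, 69.8 to 70.6 Mb from Cxcr2. Of the 3 of them that were tested, Rgs2 and Rgs1 were lower and Rgs18 did not pass. Rgs1 and Rgs18 were not compared directly.

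Of the other GRK genes, 4 of 5 were tested and 1 was lower, where 21.0% of all genes were lower. Grk5 was at 80.5, 79.5, 72.2 and 92.9 CPM in WT and at 41.8, 42.8, 38.0 and 44.4 CPM in *Cxcr2-/-* replicates 1 to 4. The groups did not overlap, the log2 change was -0.96 (SE 0.10, edgeR adjusted p = 7.38e-06), and the call held in all 18 alternative fits. Grk2, the kinase best known for desensitizing receptors, averaged 1013 ± 111 CPM in WT against 900.5 ± 150 CPM in *Cxcr2-/-* neutrophils, with a log2 fold change of -0.17 (95% interval -0.45 to 0.12). Among receptor kinase genes, Grk6 thus had a positive and Grk5 a negative change, and Grk2 did not pass.

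Among 6 chaperones and modulators of G proteins, 2 were higher and 2 lower, where 23.7% of all genes were higher and 21.0% lower. Gpsm2, which binds Gαi and orients the mitotic spindle, rose from 3.497 ± 0.194 to 17.6 ± 1.11 CPM (log2 change 2.32, edgeR adjusted p 7.77e-08). Gpsm1, a relative with the same kind of Gαi binding motifs, fell from 10.6 ± 1.60 to 3.16 ± 0.694 CPM (log2 change -1.74, edgeR adjusted p 1.30e-05). Ric8a, a chaperone of Gα subunits, fell from 178 ± 17.6 to 129 ± 16.8 CPM (log2 change -0.47, edgeR adjusted p 0.00442), and Gpsm3, a Gαi and Gβ binding protein of leukocytes, did not pass (0.21, adjusted p = 0.186). Markers of immature neutrophils, which include the proliferation genes Mki67 and Top2a, were higher for 9 of 9 genes, where 23.7% of all genes were higher. The summed level of these markers was 10420 to 12660 CPM in WT and 23380 to 34450 CPM in *Cxcr2-/-* libraries. Their part in these changes was not tested.

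Among 18 effector genes, 13 were tested, 6 were higher and 3 lower, where 23.7% of all genes were higher and 21.0% lower. The list was chosen with earlier results of these data known. All 3 lower genes belong to the signalling of PI3 kinase γ. Pik3cg, its catalytic subunit, averaged 472 ± 34.4 CPM in WT against 367 ± 28.7 CPM in *Cxcr2-/-* neutrophils (log2 change -0.36, edgeR adjusted p 0.00943). Pik3r5, an adaptor subunit that binds Gβγ, was at 477, 491, 408 and 523 CPM in WT and at 366, 290.4, 285 and 281 CPM in *Cxcr2-/-* replicates 1 to 4. Its groups were apart, with a log2 change of -0.64 (edgeR adjusted p 7.64e-04). Prex1, a Rac exchange factor that Gβγ and PIP3 activate, fell from 923 ± 145 to 604 ± 100.3 CPM (log2 change -0.61, edgeR adjusted p 0.00423). Its groups overlapped, with WT replicate 3 at 715.5 CPM and *Cxcr2-/-* replicate 1 at 742.4 CPM. These 3 genes passed in all 18 alternative fits. The other adaptor gene, Pik3r6, did not pass (-0.18, adjusted p = 0.238).

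Among the effectors that were higher, Plcb1 averaged 0.954 ± 0.485 CPM in WT against 3.18 ± 2.005 CPM in *Cxcr2-/-* neutrophils (log2 change 1.73, edgeR adjusted p 0.0118), and its log2 change was 3.70 with the covariate for pairs that met no gene. Arhgef1, an effector of Gα13, averaged 556 ± 34.95 CPM in WT against 743 ± 155 CPM in *Cxcr2-/-* neutrophils, with overlapping groups and a log2 change of 0.42 (edgeR adjusted p 0.0253), which 11 of 18 alternative fits called and which did not pass without WT replicate 2 or 3 or *Cxcr2-/-* replicate 1 or 2. Adcy7, an adenylyl cyclase of blood cells that makes cAMP, rose from 92.1 ± 8.82 to 124 ± 18.3 CPM (log2 change 0.43, edgeR adjusted p 0.00879). Its call was lost with the covariate for pairs that met no gene (0.32, edgeR adjusted p 0.313), as was that of Arhgef1 (0.16, edgeR adjusted p 0.690).

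**Figure D5:**
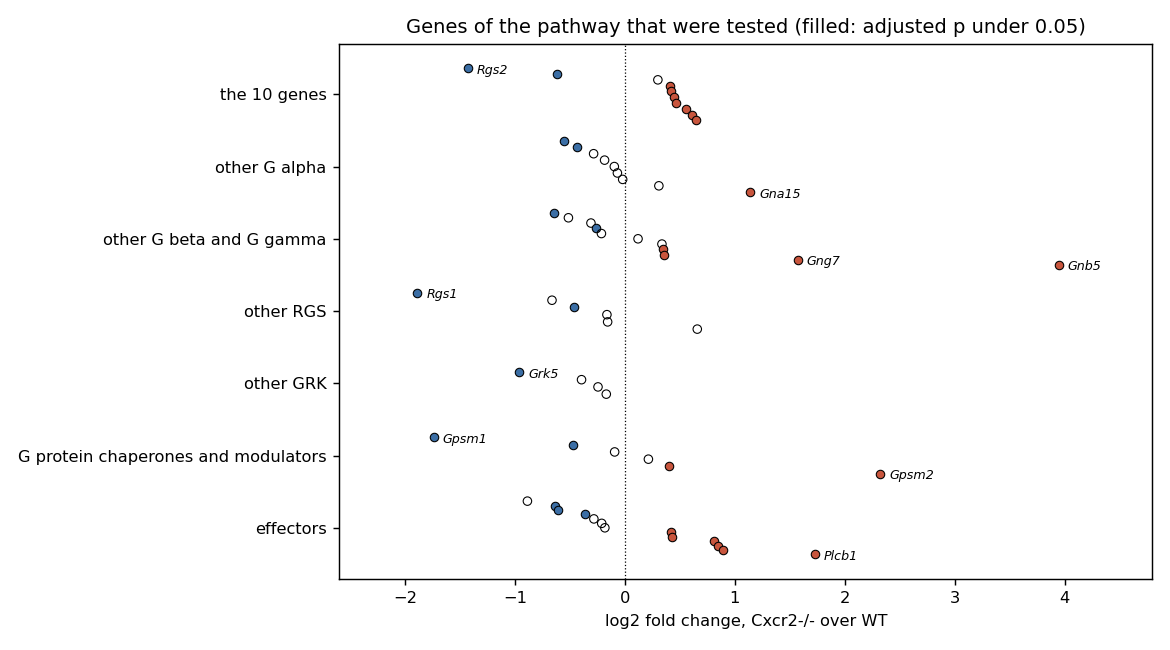
Log2 fold change, *Cxcr2-/-* over WT, of the 10 genes and of the 49 tested genes of the 6 pathway lists (vertical axis), with 1 point per gene, filled where the adjusted p was under 0.05. Points lie on both sides of 0 for every list except the other GRK genes, where all 4 are below 0, and Gnb5 lies farthest out at 3.95.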

How the data were processed

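RNA of sorted spleen neutrophils (4 WT and 4 *Cxcr2-/-* mice) was freed of ribosomal RNA and made into directional libraries. Paired reads were trimmed and mapped by STAR to the mm10 build, HTSeq assigned them to genes, and the authors deposited the resulting counts, which are whole numbers without normalization. The strand setting and program versions are not given in the sources used here. HTSeq's own totals (42.4% to 53.6% of each file) were left out of library sizes. Symbols, positions and exon lengths came from GENCODE M21 (GRCm38), matched by identifier without its version for 52081 of 55414 genes. Only 35 of these carried the same version as in the files, so the counting used another annotation, and exon lengths may differ from it.

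Counts were compared in R 4.3.3 with edgeR 4.0.16 (quasi-likelihood test, TMM, filterByExpr, Benjamini-Hochberg adjustment), with genotype as the only term. Standard errors were the log2 fold change over the square root of F. Ratios of 2 genes used counts plus 0.5 and an exact permutation test. DESeq2 1.42.0, other scalings and filters, covariates, a replicate block and each library left out in turn were alternatives, 18 in all. The edgeR and DESeq2 steps were tested on simulated data. Replicates differed by more than sampling noise in all 12 pairs (chi-square per gene from 23.9 to 99.0).

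The members and lists were chosen with earlier results of these data known. Genes of the lists were named when they passed with at least a 2-fold change or had a mean of at least 50 CPM.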

Additional observations from a re-analysis of the deposited data

Results flagged for a closer look

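In 3 of 72 groups of 4 libraries examined (36 genes, each in WT and *Cxcr2-/-*), a single library lay far from the other 3 by Dixon's 95% limit, and chance gives about 1 in 20 such groups. Gnb5 was at 11.5 CPM in *Cxcr2-/-* replicate 1, where the nearest of the others was at 12.1 CPM. Gng2 was at 65.8 CPM in *Cxcr2-/-* replicate 2, with the nearest at 60.1 CPM. Pik3r5 was at 366 CPM in *Cxcr2-/-* replicate 1, with the nearest at 290.4 CPM, which is still below the WT values. None of the 10 genes had such a library.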

How the results depend on the processing

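Of 180 alternative values of the 10 genes, 156 kept direction and call, 23 lost the call and 1 reversed. The fall of Rgs2 and that of Arrb1 passed throughout. With the covariate for pairs that met no gene, 0 of the 10 genes were higher, 4 pathway genes were higher and 7 lower, 1597 genes of all were higher and 1486 lower, and Gnai2 (-0.01), Gnb2 (-0.03) and Gpsm3 (-0.16) changed sign. With the covariate for non-neutrophil markers, 4 of the 10 were higher. Upper-quartile scaling moved all log2 fold changes by a median of -0.12 and the higher share of all calls from 53.0% to 41.2% (3076 higher and 4391 lower), and 5 of the 10 genes were then higher and 2 lower. DESeq2 gave 7 higher and 2 lower. With a library left out, 5 to 7 of the 10 genes were higher and 2 lower, pathway genes were 9 to 13 higher and 11 to 12 lower, and all genes 3426 to 3774 higher and 3062 to 3520 lower. Log2 ratio differences were then -1.28 to -1.14 for Arrb1 to Arrb2, -1.83 to -1.64 for Rgs2 to Rgs18 and -0.12 to 0.02 for Gnai2 to Gnai3, which changed sign without *Cxcr2-/-* replicate 2 (0.01) or replicate 4 (0.02). The labels do not say whether same-numbered mice were handled together. Correlations of their deviations from the group means were 0.15, -0.19, 0.24 and -0.31. Those of differently numbered mice ran from -0.27 to 0.30, and with 4 mice per group such values cannot settle whether there was a pairing. With the replicate number as a block, 7 of the 10 genes were higher and 2 lower, of all genes 3719 were higher and 3349 lower, and the ratio differences of -1.21 and -1.73 had an adjusted p of 0.1875 in an exact sign-flip permutation test, which cannot give less than 0.125 before adjustment. The cause of these shifts was not tested. Depth limits mainly the low genes, such as Gng7 and Plcb1.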

Other observations

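Some pathway genes that passed lay outside the rule for naming, so the choice to name them followed a look at their values. The phospholipase Cβ genes Plcb3 (log2 fold change 0.81, adjusted p = 1.87e-04 by edgeR) and Plcb4 (0.89, adjusted p = 0.00142) were higher in *Cxcr2-/-* neutrophils, so that all 4 phospholipase Cβ genes, with Plcb1 and Plcb2, had a positive change. Over all genes tested the median log2 fold change was 0.01. Plcb2 did not pass with the covariate for pairs that met no gene (0.31, edgeR adjusted p 0.359), and Plcb3 and Plcb4 were not examined with it. Plcb1 and Plcb4 were low, at group means of at most 3.18 and 6.68 CPM. Adcy4 (0.85, adjusted p = 0.0299) and Ric8b (0.40, adjusted p = 0.00457) were higher too, Adcy4 with overlapping groups and an adjusted p of 0.0797 in DESeq2, while Gnal (-0.55, adjusted p = 0.00136) and Gngt2 (-0.64, adjusted p = 0.0137), which encode a Gα of the Gs class and a Gγ, were lower by the same edgeR test. Plcb3 was at a mean of 40.1 CPM over the 8 libraries, Gngt2 at 26.3 CPM and the others of these genes below 20 CPM.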
